A study of Mus musculus with 8 samples.

Results

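Mouse embryonic fibroblasts that lack p53 and both cryptochromes were compared with and without ultraviolet light at the level of polyadenylated RNA. The UV-treated group, p53CryKO_UV, carried the genotype p53-/-Cry1-/-Cry2-/- in C57BL/6J, received 40 J/m2 of light of mainly 254 nm from a germicidal lamp, and was harvested 16 h later. The untreated group, p53CryKO_NT, had the same genotype. A second genotype, p53KO (p53-/- with intact cryptochromes), was treated in the same way and gave the groups p53KO_UV and p53KO_NT, so that all 4 groups lacked p53. The genes described were all those with a completed test in the authors' deposited table of p53CryKO_UV against p53CryKO_NT, 15872 of 39175 listed. Each group had 2 biological replicates per the labels, which do not say whether these came from separate animals or cultures. The table gives 1 value per gene and group, in FPKM (fragments per kilobase of transcript, scaled between libraries by the authors). The authors pooled each value over the replicates, so no SD can be given and the number of replicates behind every value is 2. The labels do not say whether the cells were primary or established lines.

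Short-wave UV links neighbouring pyrimidines in DNA, and such lesions stall RNA polymerase II wherever they lie in a transcribed strand. Nucleotide excision repair cuts them out, through a branch that scans the whole genome and a branch that starts from the stalled polymerase. In cells with p53, the protein would switch on Cdkn1a, Bax and other genes of arrest and death. The cryptochromes are the main repressors of CLOCK and BMAL1, the activators of the circadian clock, which bind E-boxes in genes such as Per1. Type I interferon signalling, in turn, acts through response elements in the promoters of interferon-stimulated genes.

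The promoters of 5 genes that recur in the results are shown because the groups they stand for moved in different directions. Each runs from 250 bases before to 50 bases after the annotated start, in RefSeq's GRCm38.p6, on the strand of the gene. Capitals mark the letters GAAANNGAA, read on either strand and taken here as an interferon response element-like motif, in Ifit3 (chr19:34583279-34583578, plus strand), Bst2 (chr8:71537423-71537722, minus strand, where 2 matches overlap) and B2m (chr2:122147437-122147736, plus strand). They mark the E-box CACGTG in Per1 (chr11:69098699-69098998, plus strand) and the GC box GGGCGG, on either strand, in Smad6 (chr9:64022010-64022309, minus strand).
Ifit3: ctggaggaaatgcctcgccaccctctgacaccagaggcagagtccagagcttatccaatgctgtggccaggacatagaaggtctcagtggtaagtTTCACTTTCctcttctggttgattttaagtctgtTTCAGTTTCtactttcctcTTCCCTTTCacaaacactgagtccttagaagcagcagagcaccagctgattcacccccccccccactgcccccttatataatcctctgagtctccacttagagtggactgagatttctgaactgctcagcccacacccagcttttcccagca
Bst2: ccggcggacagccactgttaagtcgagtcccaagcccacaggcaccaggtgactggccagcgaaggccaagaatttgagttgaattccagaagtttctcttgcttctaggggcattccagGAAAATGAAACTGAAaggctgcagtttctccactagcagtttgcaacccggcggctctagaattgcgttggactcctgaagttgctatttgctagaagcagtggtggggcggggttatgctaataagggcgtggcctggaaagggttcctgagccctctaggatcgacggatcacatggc
B2m: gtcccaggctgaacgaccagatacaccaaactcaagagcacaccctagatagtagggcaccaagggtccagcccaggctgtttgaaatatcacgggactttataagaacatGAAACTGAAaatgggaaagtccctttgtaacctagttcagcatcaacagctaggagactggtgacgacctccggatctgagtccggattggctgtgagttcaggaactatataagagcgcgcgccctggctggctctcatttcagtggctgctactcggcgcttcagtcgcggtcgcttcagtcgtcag
Per1: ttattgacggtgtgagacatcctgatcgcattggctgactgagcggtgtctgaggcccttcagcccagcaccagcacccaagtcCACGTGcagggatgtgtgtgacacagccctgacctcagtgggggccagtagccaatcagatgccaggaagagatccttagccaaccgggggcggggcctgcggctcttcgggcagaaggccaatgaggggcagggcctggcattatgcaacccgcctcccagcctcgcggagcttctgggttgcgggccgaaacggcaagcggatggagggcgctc
Smad6: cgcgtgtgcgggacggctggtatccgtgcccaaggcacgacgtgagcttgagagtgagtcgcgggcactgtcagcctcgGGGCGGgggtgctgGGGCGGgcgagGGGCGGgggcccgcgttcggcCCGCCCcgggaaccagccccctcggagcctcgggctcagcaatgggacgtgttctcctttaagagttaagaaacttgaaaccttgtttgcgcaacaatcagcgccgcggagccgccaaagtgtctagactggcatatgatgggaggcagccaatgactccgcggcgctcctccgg
Of 7797 promoters of tested protein-coding genes, 6.96% held the interferon motif, 10.7% the E-box and 68.1% the GC box.

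The genotype could not be read from these values, because a whole-gene FPKM also counts reads outside a deleted stretch. Trp53, with 106 FPKM in p53CryKO_UV and 84.4 FPKM in p53CryKO_NT cells, was the only gene whose test failed in the authors' deposited table. Cry1 had 3.79 FPKM in UV-treated cells and 3.34 FPKM in untreated cells and did not pass, and Cry2 had 1.1 and 4.54 FPKM. Of 15 tested fibroblast markers, 6 were higher and 7 lower after UV, and Vim, which encodes vimentin, stood at 4558 FPKM in UV-treated cells and 2256 FPKM in untreated cells. Of 27 markers of other cell types 10 could be tested, 6 of them higher and 1 lower, and no skeletal muscle marker was testable. The epithelial markers summed to 625 FPKM after UV and 421 FPKM untreated, almost all of it Krt19, a keratin (605 and 409.7 FPKM). The summed FPKM of protein-coding genes was 1.07e+06 in UV-treated and 529537 in untreated cells, although the median gene moved by 0.05 on the log2 scale. Mitochondrial ribosomal RNA was also higher in these poly(A)-selected libraries: mt-Rnr1 and mt-Rnr2 had 19434 and 2678 FPKM after UV against 187 and 136 FPKM untreated. A processed pseudogene model of chromosome 9, 99 bases long, had the highest FPKM among tested genes without Gm or Rik symbols. This model had 48028 FPKM after UV, was listed at 0 untreated and was not called. These values bear on library composition, and their part in the results was not tested. Directions below are on the authors' scale unless another is named. Setting the coding sums equal lowers every log2 fold change by 1.02, and setting the sums of FPKM times exonic length equal lowers it by 0.79.

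By the authors' q, UV changed the level of most tested genes in p53CryKO cells, while by implied errors most were not called. A gene was called where its q in the authors' deposited table was 0.05 or less, which 52.3% of tested genes met, 25.1% higher (3984) and 27.2% lower (4316). The share called and its split depend on the errors and the scale. Errors implied by the authors' test statistic, available for 15518 genes, gave 2833 higher and 3338 lower genes on the authors' scale. At equal coding FPKM they gave 521 higher and 7138 lower genes. Of 72 gene lists, 31 held more higher than lower calls by implied errors on the authors' scale, and at equal coding FPKM 6 of these did and 25 held more lower calls. The 38 lists with more lower calls held more lower calls on both scales. Among the 11783 tested genes of 1 FPKM or more and above 0 in both groups, changes of at least 2-fold were called for 2001 higher and 2525 lower genes, of at least 4-fold for 349 and 826, and of at least 8-fold for 68 and 149. Falls were thus more numerous than rises at each of these sizes, whereas at 16-fold or more 22 genes were higher and 16 lower. The quartiles of the log2 fold changes of these genes were -0.91 and 0.84, with 5% of genes below -2.31 and 5% above 1.95. The errors quoted here are standard errors (SE) implied by the authors' test statistic, with a median of 0.31. The smallest p the authors' test gives, 5e-05, was shared by 4926 genes, so ranks among strong changes rest on fold size.

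The largest rises among protein-coding genes of 20 FPKM or more were those of Thap1, a zinc finger transcription factor, with 202 FPKM after UV against 9.52 FPKM untreated, Lars2, the mitochondrial leucyl-tRNA synthetase, with 449 FPKM after UV against 23.2 FPKM untreated, and Arl5c, an ARF-like GTPase, with 104 FPKM after UV against 7.72 FPKM untreated. Errfi1, a feedback inhibitor of the EGF receptor, reached 134 FPKM after UV against 14.8 FPKM untreated (log2 fold change 3.18, implied SE 0.29). Nppb, which encodes brain natriuretic peptide, had 55.4 FPKM after UV against 4.67 FPKM untreated, and the cornified-envelope gene Sprr1a had 50.7 FPKM after UV against 4.74 FPKM untreated. All 6 stood more than 8-fold above the untreated level. Gadd45a, a stress-inducible growth arrest gene, had 51.2 FPKM after UV against 9.2 FPKM untreated, Hspb1, a small heat shock protein, 286 FPKM after UV against 52.2 FPKM untreated, and the metallothionein Mt2 296 FPKM after UV against 55.8 FPKM untreated. Nmi and Usp18, both interferon-inducible, had 28.9 and 24.7 FPKM after UV against 4.13 and 4.2 FPKM untreated. The 15 genes named by this rule had log2 fold changes between 2.30 and 4.40, and each had a q of 0.000161 in the authors' deposited table, the lowest it gives.

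The largest falls under the same limits were those of Ccnf, which encodes cyclin F, to 1.55 FPKM after UV against 32.8 FPKM untreated, Gas1, a growth-arrest membrane protein, to 1.29 FPKM after UV against 26.9 FPKM untreated, and Cdc42ep2, an effector of CDC42, to 2.72 FPKM after UV against 49.1 FPKM untreated. Sqle, squalene epoxidase of cholesterol synthesis, was at 2.93 FPKM after UV against 38.1 FPKM untreated. Kpna2, an importin that carries cargo into the nucleus, was at 7.14 FPKM after UV against 103 FPKM untreated (log2 fold change -3.84, implied SE 0.27). Lmnb1, the gene of lamin B1, was at 5.11 FPKM after UV against 44.5 FPKM untreated, and Nup153, a nuclear pore protein, at 1.95 FPKM after UV against 20.8 FPKM untreated. The nuclear lamina list as a whole was mixed, with 4 higher and 6 lower of 14. Snai1, a zinc finger repressor of epithelial genes, was at 2.51 FPKM after UV against 27.4 FPKM untreated, Slc2a1, the glucose transporter GLUT1, at 2.36 FPKM after UV against 20.5 FPKM untreated, and Nrn1, neuritin, at 11 FPKM after UV against 100.2 FPKM untreated. The 15 genes named by the same rule fell by 3.07 to 4.40 on the log2 scale.

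**Figure D1:**
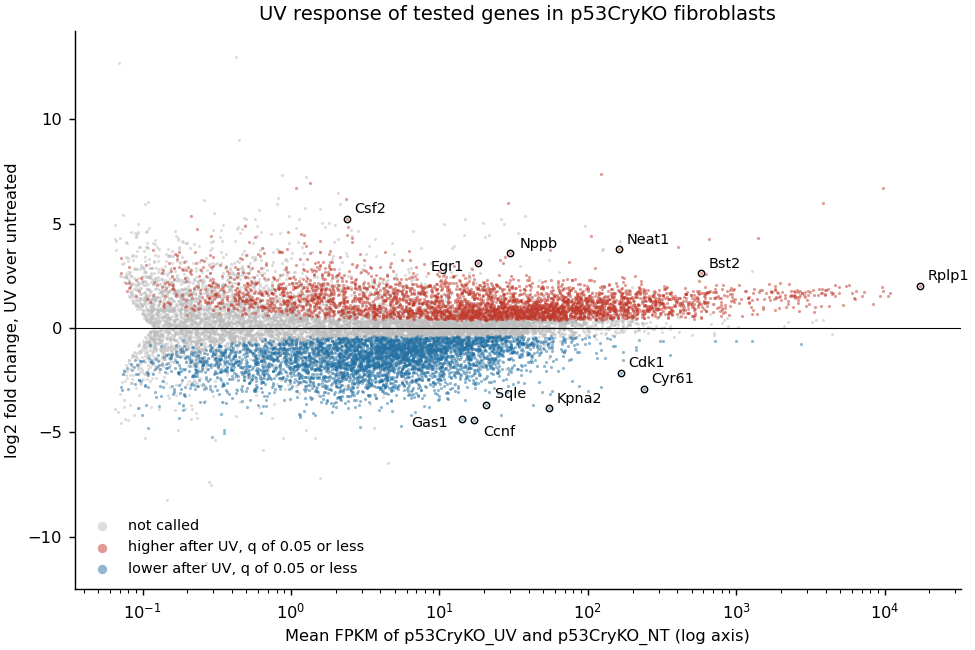
Log2 fold change of p53CryKO_UV over p53CryKO_NT (y axis) against the mean FPKM of both groups (x axis, log scale), 1 point per tested gene, coloured by call. Neat1 and Csf2 lie far above the cloud and Ccnf and Gas1 far below it.

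Damage repair genes did not move as a block on the authors' scale. Of 26 nucleotide excision repair genes, 8 rose and 7 fell (median log2 fold change 0.22 over members of 1 FPKM or more, as for every median below, against 0.05 over all such genes; -0.80 at equal coding FPKM). Over all tested genes 25.1% were higher and 27.2% lower. At equal coding FPKM implied errors gave 0 higher and 15 lower repair genes of this list, against 5 and 7 on the authors' scale. Ercc1, a subunit of the nuclease that cuts on the 5′ side of a lesion, rose to 65.5 FPKM after UV against 22 FPKM untreated (log2 fold change 1.58, implied SE 0.32), while its partner Ercc4 fell to 0.72 FPKM after UV against 2.42 FPKM untreated. Of 4 genes of the transcription-coupled branch 3 fell and none rose. Ercc6, which encodes CSB, fell to 0.618 FPKM after UV against 2.48 FPKM untreated, Ercc8, which encodes CSA, to 2.35 FPKM after UV against 5.51 FPKM untreated, and Uvssa to 0.341 FPKM after UV against 0.823 FPKM untreated, while Xab2, which binds the XPA protein, did not pass (26.8 FPKM after UV and 22.2 FPKM untreated). Ercc2, the XPD helicase of TFIIH, fell to 1.53 FPKM after UV against 7.87 FPKM untreated (log2 fold change -2.36, implied SE 0.45). The lesion sensors Xpc and Ddb2 did not pass, with 3.38 and 3.01 FPKM after UV against 3.89 and 2.55 FPKM untreated. Of 16 translesion synthesis genes, 2 rose and 4 fell. At equal coding FPKM implied errors gave 0 higher and 10 lower of these 16, against 2 and 2 on the authors' scale. Polh, the polymerase that copies past UV dimers, fell to 2.21 FPKM after UV against 12 FPKM untreated (log2 fold change -2.45), and Mad2l2, a subunit of polymerase zeta, rose to 54.8 FPKM after UV against 23.2 FPKM untreated.

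Checkpoint genes more often fell than rose. Of 21 tested, 3 rose and 10 fell (median -0.76). At equal coding FPKM implied errors gave 0 higher and 14 lower, against 1 and 10 on the authors' scale. The kinase gene Chek1, the effector of ATR, rose to 11.6 FPKM after UV against 5.54 FPKM untreated, whereas the clamp subunit Rad1 fell to 2.27 FPKM after UV against 12.4 FPKM untreated and the damage-marking histone H2afx to 20.4 FPKM after UV against 84.6 FPKM untreated. Wee1, which holds CDK1 inactive, and Cdc25a, which activates CDKs, both fell, Wee1 to 0.528 FPKM after UV against 3.72 FPKM untreated and Cdc25a to 1.98 FPKM after UV against 11.1 FPKM untreated. Members that act against each other were therefore both lower. In the Fanconi and recombination list of 29 genes, 5 rose and 9 fell on the authors' scale. Implied errors gave 4 higher and 8 lower there, and 0 and 15 at equal coding FPKM. The end-sensing subunit Nbn rose to 20.1 FPKM after UV against 8.32 FPKM untreated (log2 fold change 1.27), while the exonuclease Exo1 fell to 0.913 FPKM after UV against 6.05 FPKM untreated and the Fanconi core member Fancf to 0.409 FPKM after UV against 3.15 FPKM untreated.

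Parts of the transcription machinery moved differently, and these parts also differed in length. Of 13 RNA polymerase II subunits 7 rose and 3 fell (median 0.52, -0.50 at equal coding FPKM). Of 24 factors of pausing and elongation 5 rose and 13 fell (median -0.60). The median summed exonic length was 1650 bases for the subunits and 4728.5 bases for these factors. Over protein-coding genes of 1 FPKM or more, the median log2 fold change was 0.57 at 1500 to 2000 bases and -0.31 at 4000 to 6000 bases. Whether the split goes with role or with length was not tested. The small subunits Polr2f and Polr2g reached 920.1 and 251 FPKM after UV, against 309 and 84.7 FPKM untreated, whereas Polr2a, the catalytic subunit, fell to 18.4 FPKM after UV against 38.9 FPKM untreated (log2 fold change -1.08, implied SE 0.25). The kinase that releases paused polymerase, P-TEFb, was lower in its catalytic subunit and in a cyclin: Cdk9 fell to 23.5 FPKM after UV against 56.8 FPKM untreated and Ccnt1 to 3.64 FPKM after UV against 15.2 FPKM untreated. Rtf1 of the PAF complex fell to 2.61 FPKM after UV against 14.3 FPKM untreated. Larp7, which holds P-TEFb in its inactive 7SK particle, rose to 61.4 FPKM after UV against 19.8 FPKM untreated (log2 fold change 1.63). Of 21 general transcription factor genes 7 rose and 10 fell, and of 31 Mediator genes 5 rose and 14 fell (medians -0.68 and -0.48). Med18 and Med26, both Mediator subunits, had the largest falls there, to 0.279 and 0.726 FPKM after UV against 3.41 and 6.65 FPKM untreated. Of 23 genes of polymerases I and III 2 rose and 9 fell.

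Genes that write or read chromatin were mostly lower. Of 68 tested chromatin modifiers 6 rose and 40 fell (median -0.97). The acetyltransferase Kat6a fell to 0.691 FPKM after UV against 4.89 FPKM untreated, and the H3K4 methyltransferase genes Setd1a and Kmt2b to 1.13 and 0.96 FPKM after UV, against 7.4 and 5.96 FPKM untreated. Ep300, which encodes p300, fell to 1.38 FPKM after UV against 5.01 FPKM untreated. Of 6 DNA methylation and demethylation genes 4 fell and none rose, among them Dnmt1, the maintenance methyltransferase (12.9 FPKM after UV against 35.1 FPKM untreated). Zinc finger genes with a Zfp symbol, many of which encode sequence-specific repressors, gave the widest such pattern: of 306 tested, 18 rose and 178 fell (median -0.99). No Hox gene rose and 14 of 28 fell.

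RNA processing genes also divided. Of 19 Sm and LSm genes, whose proteins form the core of the spliceosomal particles, 13 rose and 3 fell (median 0.95, -0.07 at equal coding FPKM). Snrpa1 rose to 155 FPKM after UV against 45.6 FPKM untreated and Snrpg to 1374 FPKM after UV against 447 FPKM untreated, while Lsm2 fell to 61.6 FPKM after UV against 169.6 FPKM untreated. Of the 6 kinases of SR splicing proteins none rose and 3 fell, with Clk1 at 5.97 FPKM after UV against 18.3 FPKM untreated and Clk2 at 3.06 FPKM after UV against 12.2 FPKM untreated. Genes of messenger RNA decay were mostly lower, 2 rising and 16 falling of 27 (median -0.83). Dcp1a, a cofactor of the decapping enzyme, fell to 0.469 FPKM after UV against 4.51 FPKM untreated (log2 fold change -3.26, implied SE 0.30), Ddx6, a helicase of processing bodies, to 5.84 FPKM after UV against 20.1 FPKM untreated, and Khsrp, which binds AU-rich messages, to 8.79 FPKM after UV against 47.7 FPKM untreated. Of 14 exosome genes 6 rose and 2 fell on the authors' scale, but at equal coding FPKM implied errors gave 0 higher and 6 lower, and Exosc5 reached 46.9 FPKM after UV against 19.3 FPKM untreated. Neat1, the scaffold RNA of paraspeckles, rose to 302 FPKM after UV against 22.2 FPKM untreated (log2 fold change 3.77, implied SE 0.29), and Malat1, of nuclear speckles, did not pass (23.6 and 18.2 FPKM).

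Protein synthesis genes rose almost without exception at the ribosome and less evenly above it. Of 80 cytosolic ribosomal protein genes 79 rose and none fell (median 1.66), and from implied errors 41 remained higher at equal coding FPKM, against 79 on the authors' scale. The exception, Rpl24, was low, with 0.978 FPKM in UV-treated cells and 1.97 FPKM in untreated cells. Rps19 had 3220.2 FPKM after UV against 729 FPKM untreated and Rpl36 7438 FPKM after UV against 1770.4 FPKM untreated. Of 46 translation factor genes 29 rose and 3 fell (median 0.83, -0.19 at equal coding FPKM). Eif2b3, a subunit of the exchange factor for eIF2, reached 54.6 FPKM after UV against 13.6 FPKM untreated, and Eif4ebp2, a repressor of cap-dependent initiation, fell to 3.11 FPKM after UV against 16.9 FPKM untreated (log2 fold change -2.44). Nucleolar genes of ribosome assembly gave 17 of 36 higher and 6 lower, whereas at equal coding FPKM implied errors gave 3 higher and 16 lower. Npm1, nucleophosmin, rose to 2625 FPKM after UV against 783 FPKM untreated, and Gnl3, nucleostemin, fell to 15.4 FPKM after UV against 43.4 FPKM untreated. Of 15 host genes of small nucleolar RNAs, 10 rose and none fell, with Gas5 at 1671 FPKM after UV against 407 FPKM untreated, and at equal coding FPKM implied errors gave 5 higher and 4 lower.

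Nuclear genes of the respiratory chain were nearly as uniform. Of 76 tested, 75 rose and none fell (median 1.48), and at equal coding FPKM 24 were higher and 1 lower from implied errors, against 73 and 0 on the authors' scale. All 37 complex I genes were called higher, each by at least 1.02 on the log2 scale. Ndufa1 had 523 FPKM after UV against 131 FPKM untreated, the complex III subunit Uqcrq 1318 FPKM after UV against 321 FPKM untreated and the ATP synthase subunit Atp5e 1170.1 FPKM after UV against 284 FPKM untreated. Sdhc, of complex II, was the member that did not pass (58.7 and 48.5 FPKM). Of 13 messages made in the mitochondrion itself 9 had a completed test, 4 of them higher and 1 lower. The tested messages thus did not share the uniformity of the nuclear genes, and the untested ones could not be compared. At equal coding FPKM implied errors gave 0 higher and 3 lower of these messages, against 3 and 0 on the authors' scale. Of 76 mitochondrial ribosomal protein genes 50 rose and 7 fell (median 0.77, -0.26 at equal coding FPKM). Mrpl47 rose to 66.1 FPKM after UV against 15.9 FPKM untreated, while Mrpl44 fell to 2.73 FPKM after UV against 16.7 FPKM untreated (log2 fold change -2.61, implied SE 0.43), against the direction of the list.

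Among genes of protein folding and turnover, those of the proteasome and of chaperonin rose on the authors' scale. Of 32 proteasome genes 24 rose and none fell (median 0.82), but at equal coding FPKM none was higher and 7 were lower, against 22 and 0 on the authors' scale from implied errors. Psmd8 of the cap had 294 FPKM after UV against 112 FPKM untreated and Psma6 of the core 401 FPKM after UV against 166 FPKM untreated. Of 14 chaperonin and prefoldin genes 13 rose (median 1.06), with Cct8 at 346 FPKM after UV against 101 FPKM untreated. Of 24 cullin ligase genes 2 rose, 11 fell and 11 were not called. Fbxo5, which restrains the anaphase-promoting complex, fell to 1.65 FPKM after UV against 17.8 FPKM untreated (log2 fold change -3.43), the substrate adaptor Skp2 to 2.33 FPKM after UV against 15.9 FPKM untreated, and Fbxw7, the adaptor for cyclin E and MYC, to 0.293 FPKM after UV against 2.23 FPKM untreated. Lysosomal genes rose in 21 of 25 (median 0.96, -0.06 at equal coding FPKM) while autophagy genes were split, 8 higher and 11 lower of 27. Map1lc3a, an autophagosome protein, rose to 199 FPKM after UV against 49.2 FPKM untreated, and the initiating kinases Ulk1 and Pik3c3 fell to 1.66 and 1.16 FPKM after UV, against 5.89 and 5.5 FPKM untreated.

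**Figure D2:**
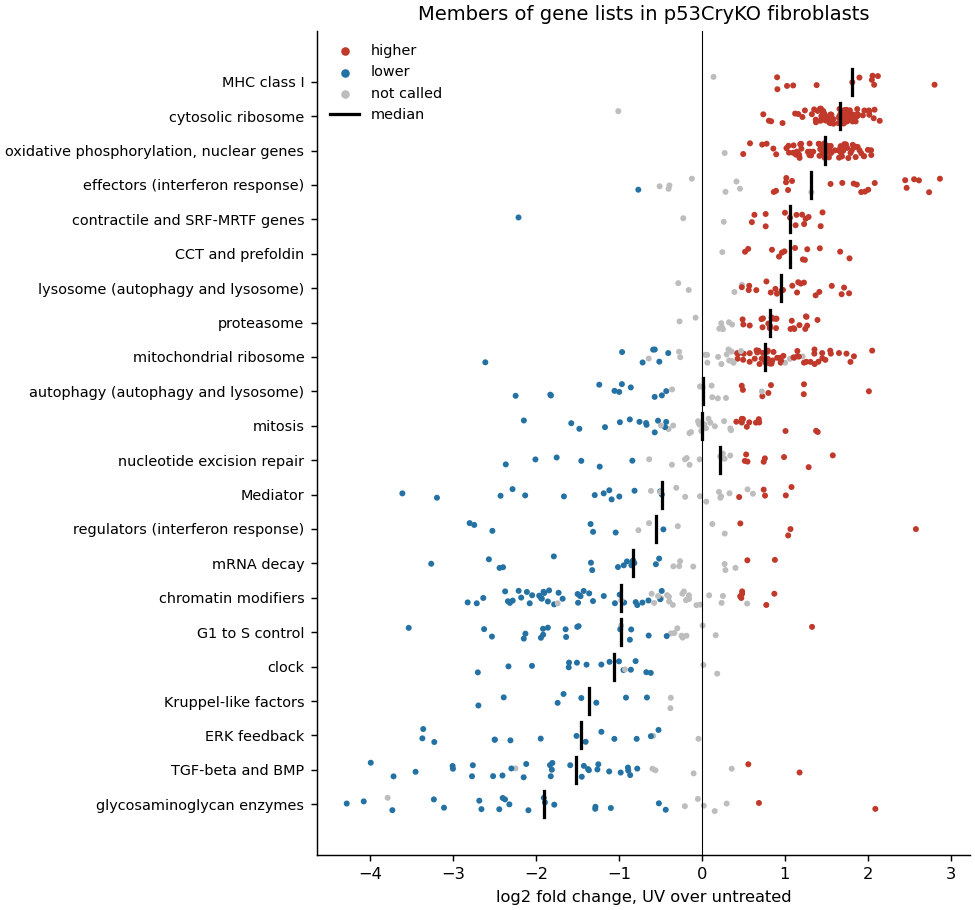
Log2 fold change of p53CryKO_UV over p53CryKO_NT for members of 22 gene lists with 1 FPKM or more in a group (x axis, 1 point per gene, coloured by call; vertical jitter only separates points). Black bars are list medians, from MHC class I, ribosome and respiratory chain above 1 to glycosaminoglycan enzymes near -1.90.

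Genes of cell cycle entry fell, while genes of division were called at shares near those of all tested genes on the authors' scale. Of 30 genes of G1 to S control 1 rose and 20 fell (median -0.98). Myc fell to 24.4 FPKM after UV against 88.3 FPKM untreated, the cyclins Ccnd1 and Ccne1 to 28.5 and 6.88 FPKM after UV against 107 and 25.9 FPKM untreated, and E2f8 to 0.32 FPKM after UV against 3.7 FPKM untreated. The exception was Cdk4, the partner of D cyclins, which rose to 1833 FPKM after UV against 730.4 FPKM untreated (log2 fold change 1.33, implied SE 0.34). CDK inhibitor genes moved in opposite directions, all 7 being called. Cdkn1a, which encodes p21, rose to 4.23 FPKM after UV against 0.809 FPKM untreated (log2 fold change 2.38) and Cdkn2a, the Ink4a and Arf locus, to 871 FPKM after UV against 351 FPKM untreated. Cdkn1b, which encodes p27, fell to 2.66 FPKM after UV against 14.4 FPKM untreated, Cdkn2b to 5.81 FPKM after UV against 27.9 FPKM untreated and Cdkn2c to 2.77 FPKM after UV against 18.8 FPKM untreated. Of 44 mitotic genes 12 rose and 13 fell, beside 25.1% higher and 27.2% lower of all tested genes. At equal coding FPKM implied errors gave 0 higher and 31 lower mitotic genes, against 6 and 9 on the authors' scale. Cdk1, the mitotic kinase, fell to 61.6 FPKM after UV against 273 FPKM untreated (log2 fold change -2.15, implied SE 0.29), whereas the spindle checkpoint kinase Bub1 rose to 26.5 FPKM after UV against 10.2 FPKM untreated and the kinetochore gene Ndc80 to 24.9 FPKM after UV against 9.46 FPKM untreated. Of 45 replication genes 20 rose and 11 fell on the authors' scale, but at equal coding FPKM implied errors gave 0 higher and 20 lower. The origin recognition subunit Orc1 fell to 1.15 FPKM after UV against 5.39 FPKM untreated, and Pold4, a subunit of polymerase delta, rose to 46.3 FPKM after UV against 16.1 FPKM untreated.

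Death genes changed on both sides of the balance on the authors' scale. Among guards against death, 3 of 4 tested fell and none rose: Bcl2l1, which encodes BCL-XL, fell to 6.93 FPKM after UV against 39.9 FPKM untreated (log2 fold change -2.53, implied SE 0.27), Mcl1 to 18.9 FPKM after UV against 42.8 FPKM untreated and Bcl2 to 0.781 FPKM after UV against 1.52 FPKM untreated. Of the effectors, Bax rose to 179 FPKM after UV against 79.2 FPKM untreated and Bak1 fell to 33.3 FPKM after UV against 70.8 FPKM untreated. Of 6 BH3-only genes 3 rose and 2 fell, with Pmaip1 at 1.32 FPKM after UV against 0.443 FPKM untreated and Bid at 5.03 FPKM after UV against 28.7 FPKM untreated. Of 17 caspase, apoptosome and IAP genes 3 rose and 9 fell. Cycs, cytochrome c, had the largest rise of the list (351 FPKM after UV against 96.4 FPKM untreated), while the nuclease Dffb fell to 0.327 FPKM after UV against 1.88 FPKM untreated, Casp2 to 2.94 FPKM after UV against 11.8 FPKM untreated and Apaf1, the scaffold of the apoptosome, to 2.04 FPKM after UV against 5.57 FPKM untreated. Of 11 death receptor genes 1 rose and 7 fell. At equal coding FPKM implied errors gave 0 higher and 2 lower BH3-only genes, and 0 and 4 guards and effectors. They gave 1 higher and 12 lower in the caspase, apoptosome and IAP list, and 0 and 7 death receptor genes. On the authors' scale the same errors gave 2 and 1, 2 and 4, 2 and 8, and 1 and 6 for these lists in turn.

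Most clock genes were lower. Of 21 tested, Cry1 and Cry2 among them, 16 fell and none rose (median -1.06). The repressor genes Per2 and Per3 fell to 0.685 and 0.45 FPKM after UV, against 4.45 and 2.26 FPKM untreated, and Arntl, which encodes BMAL1, to 0.289 FPKM after UV against 0.883 FPKM untreated. Nfil3, an output repressor, fell to 4.42 FPKM after UV against 13.4 FPKM untreated and Per1 to 1.95 FPKM after UV against 4.22 FPKM untreated. The E-box CACGTG stood in the promoters of 4 of 12 clock genes with an entry: Per1, Tef and Bhlhe41 were called lower, and Cry1 was not called. Cells were harvested at 1 time, so circadian phase was not measured.

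Immediate-early genes moved both ways on the authors' scale, and feedback inhibitors of ERK signalling fell. Egr3, an early growth response factor, rose to 4.92 FPKM after UV against 0.249 FPKM untreated (log2 fold change 4.30, implied SE 0.52), Egr1 to 32.6 FPKM after UV against 3.83 FPKM untreated, Egr2 to 1.64 FPKM after UV against 0.217 FPKM untreated and Fosb to 2.1 FPKM after UV against 0.213 FPKM untreated. In all, 10 of 25 immediate-early and AP-1 genes rose and 8 fell (median -0.18), Fosl2 to 1.91 FPKM after UV against 12.6 FPKM untreated and Jdp2 to 4.59 FPKM after UV against 25.1 FPKM untreated. At equal coding FPKM implied errors gave 3 higher and 14 lower of the 25, against 8 and 8 on the authors' scale. In the list of ERK feedback inhibitors none of 16 rose and 14 fell (median -1.46). The ERK phosphatase gene Dusp7 fell to 1.13 FPKM after UV against 11.7 FPKM untreated, Spred2 to 0.661 FPKM after UV against 6.79 FPKM untreated and Spry1 to 0.655 FPKM after UV against 6.13 FPKM untreated. Dusp1 did not pass and stood at 13.4 FPKM in UV-treated cells and 13.8 FPKM in untreated cells. Of 11 Kruppel-like factors 9 fell and none rose (median -1.36), with Klf13 at 0.30 FPKM after UV against 1.94 FPKM untreated and Klf2 at 0.36 FPKM after UV against 1.89 FPKM untreated. Of 18 growth factor receptor genes 1 rose and 12 fell, and of 25 ligand genes 2 rose, 12 fell and 11 were not called. The receptor gene Erbb2 fell to 0.664 FPKM after UV against 5.34 FPKM untreated and the neurotrophin Bdnf to 1.5 FPKM after UV against 11.6 FPKM untreated. Of 6 IGF binding protein genes 4 rose and 2 fell (at equal coding FPKM implied errors gave 1 higher and 2 lower), and Igfbp6 reached 274 FPKM after UV against 87.5 FPKM untreated.

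Developmental signalling pathways were lower in most of their members. Of 40 TGF-beta and BMP genes 2 rose and 31 fell (median -1.52). The fall took in a receptor, a transducer, an inhibitor and targets: Acvr1b fell to 0.096 FPKM after UV against 1.26 FPKM untreated, Smad1 to 1.09 FPKM after UV against 7.45 FPKM untreated, the inhibitor Smad6 to 0.57 FPKM after UV against 9.07 FPKM untreated and the target Id1 to 22.2 FPKM after UV against 178 FPKM untreated (log2 fold change -3.01, implied SE 0.25). Fstl3, a follistatin-like binder of activins, rose to 19.1 FPKM after UV against 8.45 FPKM untreated. Of 24 promoters of this list in the RefSeq table, 21 held the GC box, as Smad6 does 4 times in the sequence printed above, and their median GC content was 72.0%. Of 14 Notch genes 8 fell and none rose, Lfng, which modifies the receptor, to 1.55 FPKM after UV against 9.67 FPKM untreated. Of 11 Hedgehog genes 8 fell and 1 rose, and the transcription factor Gli2 fell to 0.149 FPKM after UV against 1.11 FPKM untreated. Wnt genes gave 1 higher and 22 lower of 34, and Lef1, a nuclear effector, fell to 0.146 FPKM after UV against 0.729 FPKM untreated. Of 19 Hippo genes 2 rose and 13 fell, Cyr61, a YAP target that encodes a matricellular protein, to 55.8 FPKM after UV against 422 FPKM untreated and Sav1, a scaffold of the kinase core, to 3.95 FPKM after UV against 16.4 FPKM untreated.

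Extracellular matrix genes rose in some families and fell in others on the authors' scale. Of 28 matrix glycoprotein genes 14 rose and 9 fell. With the small leucine-rich proteoglycans, 35 genes in all, implied errors gave 10 higher and 7 lower on the authors' scale. At equal coding FPKM they gave 2 higher and 13 lower. Postn, periostin, rose to 253 FPKM after UV against 63.4 FPKM untreated (log2 fold change 1.99, implied SE 0.35), while Thbs1, thrombospondin 1, fell to 30.4 FPKM after UV against 216 FPKM untreated, and Emilin1 to 4.27 FPKM after UV against 25.5 FPKM untreated. The small leucine-rich proteoglycan decorin, Dcn, rose to 99.1 FPKM after UV against 26.5 FPKM untreated. Collagen genes as a list gave 9 higher and 8 lower of 39, and the type I collagen genes Col1a1 and Col1a2 fell to 139 and 107 FPKM after UV against 285 and 241 FPKM untreated. At equal coding FPKM implied errors gave 0 higher and 24 lower of the collagen list, against 4 and 5 on the authors' scale. The protease inhibitor Timp1 rose to 1085 FPKM after UV against 385 FPKM untreated. Enzymes that build and sulfate glycosaminoglycans had a median of -1.90, with 2 of 33 higher and 22 lower. The sulfotransferase genes Chst12 and Ndst2 fell to 1.1 and 0.634 FPKM after UV, against 14.6 and 5.96 FPKM untreated, and Has1, a hyaluronan synthase, rose to 2.59 FPKM after UV against 0.608 FPKM untreated. Contractile genes rose in 14 of 19 and fell in 2 (median 1.06), but at equal coding FPKM none was higher and 5 were lower, against 11 and 2 on the authors' scale from implied errors. The tropomyosin gene Tpm2 had 803 FPKM after UV against 293 FPKM untreated and Tagln, transgelin, 1449.8 FPKM after UV against 628 FPKM untreated, while Mkl1, the coactivator that drives such genes with SRF, fell to 3.67 FPKM after UV against 17 FPKM untreated. Of 24 actin machinery genes 9 rose and 5 fell, but at equal coding FPKM implied errors gave 0 higher and 15 lower, and the beta-actin gene Actb fell to 2030.2 FPKM after UV against 3427 FPKM untreated. Cdc42ep3, an effector of the GTPase CDC42, fell to 6.24 FPKM after UV against 38 FPKM untreated.

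**Figure D3:**
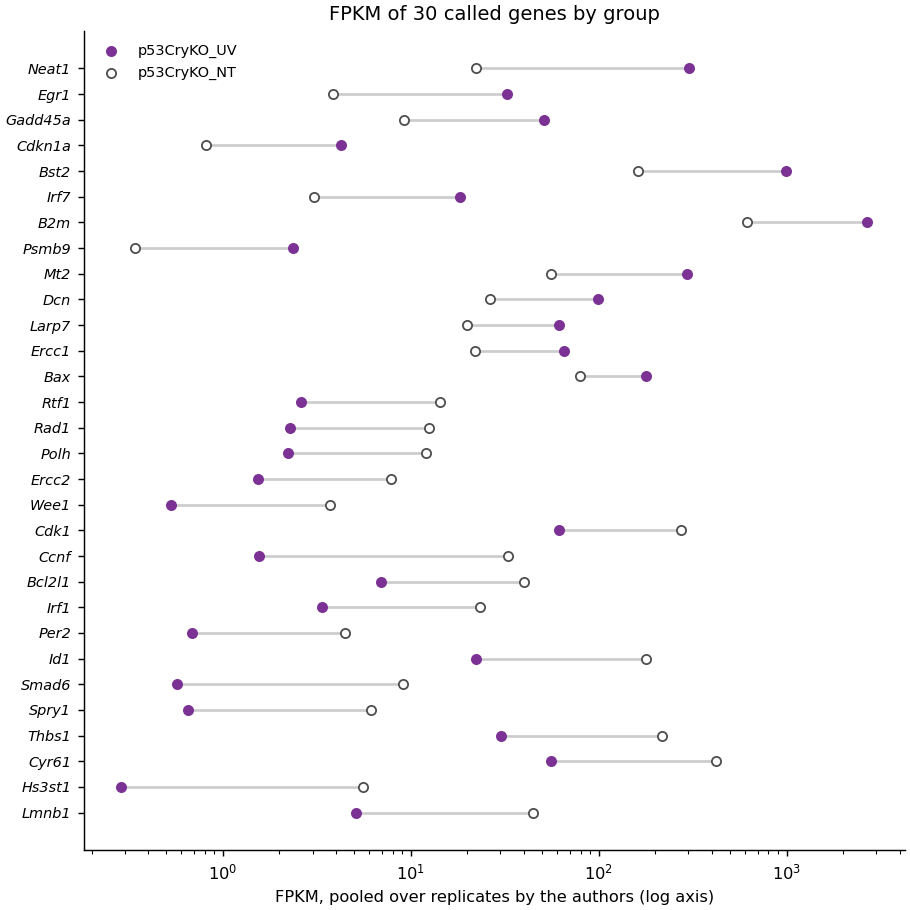
FPKM of 30 called genes in p53CryKO_UV (filled) and p53CryKO_NT (open) cells on a log axis, 1 row per gene. Each point is the authors' value pooled over 2 replicates, so there are no error bars; B2m lies at 2686 and 617 FPKM and Smad6 at 0.57 and 9.07 FPKM.

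Interferon effectors rose, and their upstream regulators did not rise with them as a list. Of 33 effector genes 22 rose and 1 fell (median 1.32), and of 16 regulators 4 rose and 7 fell (median -0.55). Bst2, tetherin, which holds budding virus at the membrane, reached 996 FPKM after UV against 162 FPKM untreated (log2 fold change 2.62, implied SE 0.25). Gbp3, a guanylate-binding protein, reached 17.4 FPKM after UV against 2.6 FPKM untreated, Zbp1, a sensor of Z-form nucleic acid, 11.5 FPKM after UV against 2.08 FPKM untreated, and Ifitm3, which blocks viral entry, 1490.0 FPKM after UV against 419 FPKM untreated. Trim25, a ubiquitin ligase of RNA sensing, was the effector that fell, to 5.49 FPKM after UV against 9.34 FPKM untreated. Among regulators Irf7, the factor that amplifies interferon production, rose to 18.3 FPKM after UV against 3.07 FPKM untreated. Against it, Irf1 fell to 3.35 FPKM after UV against 23.3 FPKM untreated, Irf2 to 1.19 FPKM after UV against 6.87 FPKM untreated and the kinase Tbk1 to 1.08 FPKM after UV against 7.24 FPKM untreated. Over both roles together, implied errors gave 12 higher and 15 lower of 49 at equal coding FPKM, against 23 and 7 on the authors' scale.

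MHC class I presentation genes rose with the effectors. Of 14 tested 12 rose and none fell (median 1.81), and 4 stayed higher at equal coding FPKM by implied errors, against 11 on the authors' scale. B2m, the light chain, reached 2686 FPKM after UV against 617 FPKM untreated (log2 fold change 2.12, implied SE 0.26), and the heavy chain genes H2-K1 and H2-D1 152 and 225 FPKM after UV against 36.6 and 54.4 FPKM untreated. The immunoproteasome subunit Psmb9 rose to 2.37 FPKM after UV against 0.339 FPKM untreated. Heavy chain genes share sequence with related copies, so their separate values are uncertain. The interferon motif stood in 17 of 35 promoters of the interferon list and in 4 of 12 of the MHC list, beside 6.96% of all promoters. Of the 17, 14 belonged to genes called higher, 2 to genes called lower (Irf2 and Trim25), and Rsad2 was not called.

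Cytokine and metabolic genes completed the picture with mixed directions on the authors' scale. Of 25 fibroblast cytokine and chemokine genes 8 rose and 8 fell. Implied errors gave 7 higher and 6 lower of them on the authors' scale, and 2 and 11 at equal coding FPKM. Csf2, which encodes GM-CSF, rose to 4.62 FPKM after UV against 0.123 FPKM untreated (log2 fold change 5.23, implied SE 1.01), the chemokine Ccl8 to 12.2 FPKM after UV against 1.6 FPKM untreated and Ccl5 to 48.4 FPKM after UV against 18.3 FPKM untreated, whereas Socs3, a feedback inhibitor of cytokine signalling, fell to 1.18 FPKM after UV against 5.54 FPKM untreated and Cxcl12 to 87.9 FPKM after UV against 259 FPKM untreated. In the NF-kB list 4 of 13 rose and 5 fell, beside 25.1% higher and 27.2% lower of all tested genes. At equal coding FPKM implied errors gave 0 higher and 7 lower of this list, against 3 and 4 on the authors' scale. The NF-kB inhibitors Nfkbia and Tnfaip3 fell to 11.3 and 1.15 FPKM after UV against 30.3 and 6.78 FPKM untreated. Of 31 NRF2 and antioxidant genes 19 rose and 9 fell on the authors' scale, and at equal coding FPKM 4 were higher and 11 lower by implied errors. Gpx4, which reduces lipid peroxides, rose to 1411 FPKM after UV against 400.3 FPKM untreated, and Gclc, of glutathione synthesis, fell to 1.73 FPKM after UV against 10.2 FPKM untreated. Glycolytic enzymes rose in 11 of 21 and fell in 4 on the authors' scale, but at equal coding FPKM implied errors gave 0 higher and 9 lower. Pgk1 rose to 369 FPKM after UV against 153 FPKM untreated, while hexokinase Hk2 fell to 3.47 FPKM after UV against 17.4 FPKM untreated alongside the transporter Slc2a1. Of 35 cholesterol and fatty acid genes 2 rose and 18 fell, with Hmgcs1, an early enzyme of the pathway, at 3.75 FPKM after UV against 26.9 FPKM untreated. Within the integrated stress response 7 of 23 rose and 13 fell: Ppp1r15a, the inducible phosphatase subunit, rose to 50.9 FPKM after UV against 13.4 FPKM untreated and its constitutive relative Ppp1r15b fell to 4.76 FPKM after UV against 21.3 FPKM untreated.

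Direction went with summed exonic length across the 10305 protein-coding genes of 1 FPKM or more. This length merges the exons of all annotated transcripts of a gene and is not the length of a single transcript. The median log2 fold change was 1.41 for 268 genes with exons summing to at most 1 kb, of which 70.1% rose and 3.73% fell, and -0.44 for 1864 genes over 8 kb, of which 12.7% rose and 45.4% fell. Across genes, Spearman's rho with summed exonic length was -0.30, with genomic span -0.22 and with the number of exons -0.06; genes are not independent replicates, and all points share the same libraries. By genomic span the median was 0.64 under 5 kb, -0.40 at 50 to 100 kb and -0.23 over 200 kb, so that it did not fall steadily. Among genes with 2 to 4 kb of exons the medians were 0.20 under 5 kb of span and 0.31 over 200 kb, where 31 genes lay, and the profile along span did not remain. Direction also went with level, for which untreated p53KO cells were used since their values are no part of the fold change. The median was -0.52 at 2 to 5 FPKM in p53KO_NT, -0.55 at 5 to 10 FPKM and 0.92 above 100 FPKM, where 74.0% rose. Within the 2 to 4 kb exonic class the same levels gave -0.24, -0.39 and 0.89. Nothing is read from the class up to 1 FPKM, because a gene low in untreated cells could meet the limit of 1 FPKM through the UV-treated group, where it is higher. Why length and level go with the response was not tested.

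**Figure D4:**
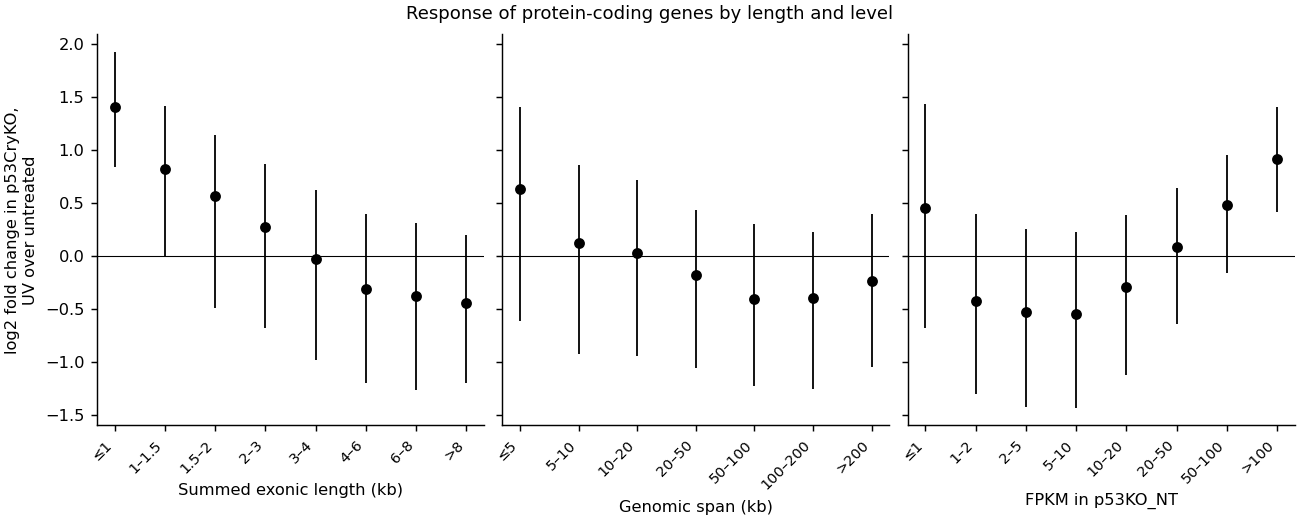
Median log2 fold change of p53CryKO_UV over p53CryKO_NT (points, y axis) with quartiles (lines) for protein-coding genes by summed exonic length, genomic span and FPKM in p53KO_NT. The medians go down with exonic length, reach a low at 50 to 200 kb of span, and go up from 5 to 10 FPKM to over 100 FPKM; the class up to 1 FPKM is set in part by the limit of 1 FPKM in a group.

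Promoter composition moved with direction to a smaller degree. Among 7797 promoters, Spearman's rho between GC content and the log2 fold change was -0.15, as a description across genes. The median log2 fold change was -0.09 up to 45% GC, 0.09 at 45 to 50% GC and -0.59 above 75% GC, where 53.4% of genes fell. Among genes with 2 to 4 kb of exons the same classes had medians of 0.52, 0.24 and -0.19. The GC box GGGCGG was in 63.5% of promoters of risen genes, 72.6% of those of fallen genes and 68.1% of all. The letters TATAAA were in 8.68%, 5.65% and 6.43%, and the ETS-type letters CCGGAAG in 22.4%, 17.5% and 20.2%. Both were thus somewhat more frequent in promoters of risen genes. For the interferon motif these shares were 8.55%, 5.72% and 6.96%, and for the E-box 11%, 10.2% and 10.7%. All motifs were read on both strands. A match describes letters in this window and no more.

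The same treatment in p53KO cells gave a similar profile, and 22 genes differed. The comparison bears on the question in the study's title, whether cryptochrome loss alters the UV response of p53-deficient cells. The 2 comparisons come from separate tables, scaled separately by the authors, and share no samples. The difference of log2 fold changes, p53CryKO minus p53KO, was set over its implied SE for 12300 genes, with a normal distribution and Benjamini-Hochberg adjustment. At an adjusted q of 0.05, 22 genes (0.179%) were called, 9 with a higher and 13 with a lower response in p53CryKO cells, and 373 had an unadjusted p under 0.05. That share of the 12300 genes is below the 0.05 expected where no gene differs and the errors are right. The median difference in size was 0.26, below the median SE of the difference of 0.48, and in simulated data with 200 changed genes this test recovered 2.2% of differences of 1, 60.1% of 2 and 80.0% of 3 on the log2 scale. Differences of 1 were thus rarely recovered with these errors. The simulated noise was drawn from the same implied errors, so the simulation restates them and cannot show whether they are right. Across the 12300 genes Pearson's r of the log2 fold changes was 0.92 and Spearman's rho 0.93, as a description. Of the 7552 genes called in p53CryKO cells 84.7% were called in p53KO cells, and of those called in p53KO cells 87.1% were called in p53CryKO cells. Of the 6400 called in both, 6379 moved the same way and 21 moved in opposite directions.

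Of the 22 genes, 2 were among 24 tested immediate-early factors, 2 among 16 ERK feedback inhibitors and 1 among 11 Kruppel-like factors. Over all 12300 genes the share was 0.179%. The lists of interferon response, matrix proteases and inhibitors, histone variants and known p53 targets held 1 each, of 43, 22, 10 and 27 tested. Of 6 tested RGS genes 1 was called. The lists were chosen with earlier results known, so these counts are a description only. Egr3 had 4.92 FPKM in p53CryKO_UV and 0.249 FPKM in p53CryKO_NT cells, against 6.16 FPKM in p53KO_UV and 3.04 FPKM in p53KO_NT cells (difference 3.29, implied SE 0.62, adjusted q = 0.000233 by the normal test above). Its level after UV was close in both genotypes, and the untreated level was lower in p53CryKO cells. Egr1 was lower in p53CryKO than in p53KO cells in both conditions, with 32.6 and 3.83 FPKM in p53CryKO_UV and p53CryKO_NT cells and 98 and 37.1 FPKM in p53KO_UV and p53KO_NT cells (difference 1.68, implied SE 0.39). Klf4 went down in p53CryKO cells (6.78 and 12.8 FPKM in UV-treated and untreated cells) and up in p53KO cells (3.28 and 1.24 FPKM), a difference of -2.31 (implied SE 0.43). Edn1, endothelin 1, went the same 2 ways (difference -2.44). Dusp6, an ERK phosphatase, was at 6.51 and 25 FPKM in p53CryKO_UV and p53CryKO_NT cells and at 15.9 and 20.4 FPKM in p53KO_UV and p53KO_NT cells, and only the p53CryKO change was called. Plk2, a stress-responsive kinase, had 29 and 87.3 FPKM in p53CryKO_UV and p53CryKO_NT cells and 31.8 and 27.8 FPKM in p53KO_UV and p53KO_NT cells. Untreated Klf4, Edn1 and Plk2 levels were higher in p53CryKO than in p53KO cells, across tables normalized separately. Ifit3, whose promoter is printed above, was the interferon effector with a difference: 8.34 and 1.97 FPKM in p53CryKO_UV and p53CryKO_NT cells, against 0.514 and 0.767 FPKM in p53KO_UV and p53KO_NT cells (difference 2.66, implied SE 0.56). H3f3a, a histone H3.3 gene with many near-identical copies, fell in p53KO cells (54.5 and 222 FPKM in UV-treated and untreated cells), while its p53CryKO values, 210.1 and 226 FPKM, were not called different.

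**Figure D5:**
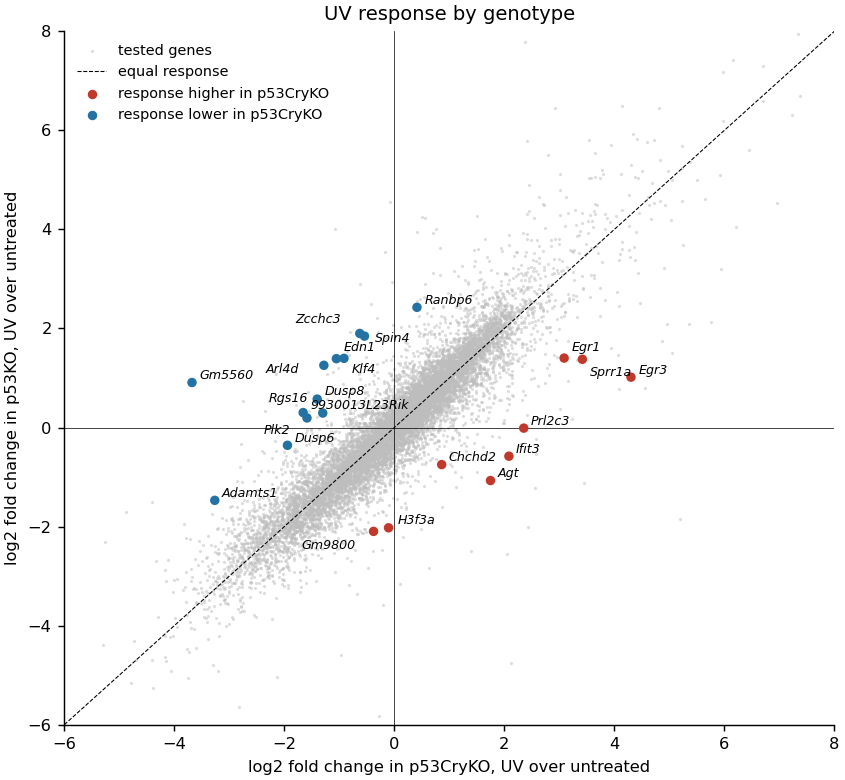
Log2 fold change after UV in p53CryKO cells (x axis) against that in p53KO cells (y axis) for 12300 genes, with the dashed line where both are equal. The 22 genes called for a difference are coloured, 9 to the right of the line and 13 to the left.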

How the data were processed

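Polyadenylated RNA of 4 groups with 2 biological replicates each (8 samples, of which 4 belong to p53CryKO) was sequenced as paired ends, per the labels. The submitters' processing notes name the build GRCm38 and the tools STAR 2.5.2, Trimmomatic 0.35 and FastQC 0.11.5, and, without a version, Cuffdiff and Cufflinks. The FPKM values were computed by the authors as 1 pooled value per gene and group, per the file headers. The log2 fold changes, the test statistic (a signed score), the p-values and the q-values were also deposited by the authors, per the file headers. Fragment totals, and so the depth behind a value, were not recorded there, and whether fragments were assigned by strand is unknown, so overlapping and antisense genes are uncertain. Near-identical copies (ribosomal protein, histone and MHC genes and their pseudogenes) may share fragments.

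From these, log2 fold changes of UV over untreated were recomputed, and an SE was implied as the log2 fold change over the test statistic. Cuffdiff's q of 0.05 or less made a call. The difference between genotypes used implied errors, a normal distribution and Benjamini-Hochberg adjustment over genes of 1 FPKM or more. It was also run on simulated data whose noise was drawn from the same implied errors. Gene spans, exonic lengths and types came from GENCODE M21 (96.2% of identifiers matched), promoters from RefSeq. Python 3.11.15, numpy 2.4.6, pandas 2.3.3 and scipy 1.17.1 were used. Gene lists got no test, only counts and medians over members of 1 FPKM or more. The rule for named genes took called genes, without Gm and Rik models: the 15 largest rises and 15 largest falls among protein-coding genes with 20 FPKM or more in the higher group and above 0 in the lower. It added the 10 genes of highest FPKM, the 10 of highest FPKM among those listed at 0 in the other group, and up to 12 genes in each direction whose response differed between genotypes at 5 FPKM or more. From each list it took up to 6 called members of largest change and up to 3 uncalled ones of highest FPKM, and it added the targeted genes. Other genes named were chosen after their values were seen. The members and the 72 lists were chosen with earlier results of these data known. Alternatives were stricter q and FPKM limits, a pseudocount of 1, other scalings and other errors. Some genes that the rule takes are not reported here.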

Additional observations from a re-analysis of the deposited data

Results flagged for a closer look

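The UV response differed between p53CryKO and p53KO cells for 22 genes by a test of the difference itself, p53CryKO minus p53KO in log2 fold change. In 9 the response was higher in p53CryKO cells: Egr3 (3.29), Agt (2.82), Ifit3 (2.66), Prl2c3 (2.36), Sprr1a (2.04), H3f3a (1.92), the processed pseudogene Gm9800 (1.72), Egr1 (1.68) and Chchd2 (1.61). In 13 it was lower: the processed pseudogene Gm5560 (-4.59), Arl4d (-2.54), Zcchc3 (-2.53), Edn1 (-2.44), Spin4 (-2.39), Klf4 (-2.31), Ranbp6 (-2.01), Dusp8 (-1.98), 9930013L23Rik (-1.96), Adamts1 (-1.79), Plk2 (-1.78), Rgs16 (-1.59) and Dusp6 (-1.58). Gm5560 had 6.14 FPKM in p53CryKO_UV and 78.7 FPKM in p53CryKO_NT cells, against 3.18 FPKM in p53KO_UV and 1.69 FPKM in p53KO_NT cells, so that the untreated p53CryKO value stands apart. Sprr1a and the proliferin gene Prl2c3 stood lower in p53CryKO than in p53KO cells with and without UV: Sprr1a had 50.7 and 4.74 FPKM in p53CryKO_UV and p53CryKO_NT cells and 516 and 199 FPKM in p53KO_UV and p53KO_NT cells. Prl2c3 had 11.8 and 2.31 FPKM in p53CryKO_UV and p53CryKO_NT cells and 42.2 and 42.6 FPKM in p53KO_UV and p53KO_NT cells. Adamts1, a matrix protease, fell in both genotypes, with log2 fold changes of -3.26 in p53CryKO and -1.47 in p53KO cells.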

How the results depend on the processing

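With 3984 genes called higher and 4316 lower, the counts of higher genes were 2396 at a q of 0.001, 2339 with at least 2-fold change over all tested genes, 2639 when centred on the median gene with implied errors, 521 at equal coding FPKM and 855 at equal FPKM times exonic length. Of lower genes, 2354 had 5 FPKM or more, and 7138 were called at equal coding FPKM. Part of these shifts comes from the implied errors, which without rescaling gave 2833 higher and 3338 lower. The difference between genotypes gave 18 higher and 21 lower genes with errors implied by the p-value, 14 of the 22 being shared, and 8 lower at an adjusted q of 0.01; the cause was not tested. Of the 200 called genes named in the text, 170 kept sign and call at equal coding FPKM and 27 their sign only. Krt19, Vim and Chchd2 were called higher on the authors' scale and had log2 fold changes of -0.46, -0.00613 and -0.16 at equal coding FPKM. The median log2 fold change was 0.87 higher under 5 kb of genomic span than over 200 kb; within exonic lengths up to 2 kb, 2 to 4 kb and 4 to 6 kb that gap was -0.30, -0.11 and -0.77. The gap between genes over 100 FPKM and those of 2 to 5 FPKM was 1.45 by level in untreated p53KO cells and 1.57 by level in untreated p53CryKO cells, an alternative chosen after seeing the data. No paired analysis was possible because the table gives 1 pooled value per group, and for the same reason no replicate could be left out; the spread between replicates limits every statement and was not seen here.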

Other observations

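Several classes of genes without a protein product held more higher than lower calls after UV in p53CryKO cells. Of 1574 tested processed pseudogenes 605 rose and 19 fell (median log2 fold change 1.68, and 0.66 at equal coding FPKM), and of 164 ribosomal protein pseudogenes 109 rose and none fell (median 1.93, and 0.91 at equal coding FPKM), beside 3089 higher and 4201 lower of 12565 protein-coding genes (median -0.09, and -1.11 at equal coding FPKM). Of 329 lincRNA genes 76 rose and 27 fell, with a median of 0.77 that turned to -0.25 at equal coding FPKM. For processed pseudogenes, ribosomal protein pseudogenes and lincRNAs the medians cover only 820, 130 and 116 genes of 1 FPKM or more in a group. A gene low in untreated cells could meet that limit through the UV-treated group, where it is higher. With a pseudocount of 1 the medians over the same genes were 1.13, 1.60 and 0.56. Of 50 small nuclear RNA models 10 rose and none fell. Pseudogenes share sequence with their parent genes, and how fragments were divided between them was not tested.

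Among called genes 87 were listed at 0 in a group, 14 after UV and 73 untreated, and 26 of them are protein-coding. After UV the Y RNA gene Rny1 had 613 FPKM and the minor spliceosome RNA Rnu11 14.9 FPKM. Cldn6, a claudin of tight junctions, had 4.24 FPKM. All 3 were listed at 0 in untreated cells. The models of Rny1 and Rnu11 are only 112 and 134 bases long, and how this bears on their FPKM was not tested. Of 209 solute carrier genes 28 rose and 84 fell (median -0.48), with Slc16a3, a lactate exporter, at 0.786 FPKM after UV against 4.02 FPKM untreated. F-box genes, the substrate adaptors of cullin ligases, gave 7 higher and 25 lower of 57.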
